A study of Mus musculus with 20 samples.

Results

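Serum response factor (Srf), its myocardin-related cofactors Mrtfa and Mrtfb, and 7 genes of the actin cytoskeleton (Vcl, Actb, Actg1, Tpm1, Myl9, Tagln and Flna) were followed through both RNA-seq experiments on DC2 cells. The genes were taken by symbol. All 10 were present in each of the 2 abundance tables, which list 21509 protein-coding genes. DC2 is a mouse cell line, immortalized from principal cells of the distal caput epididymis, so every library came from a single line. In the first experiment, 6 libraries were made from cells perfused in microfluidic channels at 1 dyn/cm2 for 3 h (flow) and 6 from cells held for 3 h without flow (static). In the second, 4 libraries came from cells transfected with siRNA against Ift88, a gene needed to build primary cilia, and 4 from cells given a scrambled control siRNA. According to the paper's methods, cells of both experiments grew on fibronectin and were starved of serum to let cilia form, and both siRNA groups were exposed to flow. The labels of the siRNA libraries do not name flow.

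Values are TPM, transcript abundances corrected for transcript length that sum to 1000000 in each library, so levels of different genes can be set side by side. TPM are shares of the measured RNA, and in bulk samples fewer cells of a kind and less RNA per cell cannot be told apart. TPM keep no read total, so the depth of each library, and with it the counting error, is unknown. Between 15292 and 16682 genes were above 0 in the 20 libraries. Of 8 markers of principal and epithelial cells, Lcn9 was at 0 in every library, Lcn8 was at 0 in the flow and static libraries and at most 0.225 in the siRNA experiment, and Aqp9 did not exceed 0.413. Epcam did not exceed 0.332. Krt18 reached 159, so the defining secretory markers of the principal cell were near or at 0 while a keratin was present. The title of flow replicate 6 says flow but its treatment entry says static. Here it stands among the flow libraries, and the differences of the 10 genes are also given with it counted as static. Libraries numbered 1 to 3 and 4 to 6 stood apart on the first principal component, which held 34.4% of the variance of the flow experiment.

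SRF is a transcription factor that binds a short element called the CArG box. It has cofactors of different kinds. MRTF-A and MRTF-B bind monomeric actin and are kept from the nucleus by it, and they are released when actin assembles into filaments, as happens when cells are under mechanical load. The ternary complex factors (TCF) respond to MAP kinase signalling and drive immediate early genes through the same SRF. Cytoplasmic actins, vinculin, tropomyosin, filamin and SRF itself are textbook products of this circuit, which thereby feeds back on its own components. Myosin light chain 9 and transgelin are best known from smooth muscle.

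The bases upstream of the start site are shown for the 4 genes whose promoter window holds a CArG box, since the box is what SRF reads. Promoter windows (RefSeq, GRCm38.p6, 250 bases before to 50 after the start) were found for 8 of the 10 genes, in 11 windows. No window was found for Actb or Tagln. The windows of Mrtfa, Mrtfb, Tpm1 and Flna held no exact box. The stretches below run 5′ to 3′ on the gene's strand, end before the gene model begins, and carry the box in capitals. Distances are counted from the RefSeq start that sets the window, which for Srf, Actg1 and Myl9 lies inside the gene model, downstream of the stretch shown. Srf (chr17:46556176-46556412, minus strand) has boxes at 82 to 73 and at 62 to 53 bases before the start, Vcl (chr14:20929148-20929397, plus strand) at 227 to 218, Actg1 (chr11:120348543-120348745, minus strand) at 90 to 81 and Myl9 (chr2:156775214-156775419, plus strand) at 161 to 152.
Srf: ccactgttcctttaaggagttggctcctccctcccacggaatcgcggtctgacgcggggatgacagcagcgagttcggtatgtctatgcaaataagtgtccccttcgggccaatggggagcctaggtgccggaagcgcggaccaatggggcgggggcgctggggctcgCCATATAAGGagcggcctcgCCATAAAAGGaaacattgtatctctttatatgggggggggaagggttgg
Vcl: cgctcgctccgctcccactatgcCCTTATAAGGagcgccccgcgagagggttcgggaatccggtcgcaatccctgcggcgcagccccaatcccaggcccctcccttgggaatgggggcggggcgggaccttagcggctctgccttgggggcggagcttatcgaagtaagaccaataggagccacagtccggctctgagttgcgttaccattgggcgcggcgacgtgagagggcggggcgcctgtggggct
Actg1: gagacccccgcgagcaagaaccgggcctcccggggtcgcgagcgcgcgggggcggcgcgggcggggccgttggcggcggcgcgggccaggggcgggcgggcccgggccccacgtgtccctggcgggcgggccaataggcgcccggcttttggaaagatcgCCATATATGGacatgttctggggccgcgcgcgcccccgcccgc
Myl9: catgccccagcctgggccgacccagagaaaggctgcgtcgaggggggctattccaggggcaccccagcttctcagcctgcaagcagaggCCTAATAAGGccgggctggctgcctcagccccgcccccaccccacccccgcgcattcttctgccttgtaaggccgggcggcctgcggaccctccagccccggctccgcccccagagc
The exact box, CC and GG around 6 bases that are A or T, reads the same way on both strands as a pattern. It was found in 4 of these 8 genes and in 488 of 27025 genes with a window (1.81%). Allowing 1 other base among the 6 added Mrtfa, for 5 of 8, against 11.3% of all genes. A match describes the letters in the window and does not show that SRF binds there.

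Under flow, Srf was the gene of the 10 with the largest log2 difference. Its flow libraries ran from 38.1 TPM to 108 TPM with a median of 68.6, and its static libraries from 34.7 to 41.5 with a median of 38.2. The static libraries were close together, and 5 of the 6 flow libraries lay above all of them. Only flow replicate 2, at 38.1, fell inside the static range. The means were 71.2 ± 25.0 under flow and 38.2 ± 2.71 in static cells (SD, n = 6 each), a ratio of 1.87. Srf was higher under flow in all 6 same-numbered pairs, as were 1.98% of the 11388 genes tested. On the log2(TPM + 1) scale the difference was 0.81 ± 0.19 (SE, 95% interval 0.40 to 1.22), with a limma p of 0.000808 and an adjusted p of 0.161, so Srf did not pass the threshold. With flow replicate 6 counted as static, in keeping with its treatment entry, the difference was 0.47. The paper, which tested with DESeq2, names Srf among its differentially expressed genes for both shear stress and primary cilia.

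**Figure D1:**
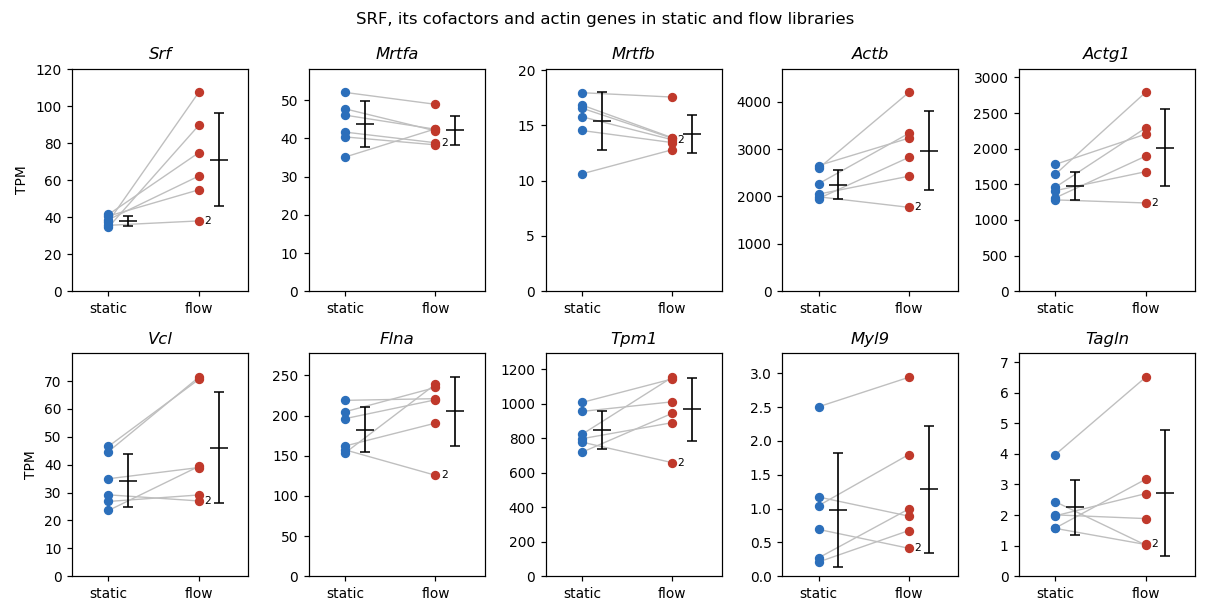
TPM of the 10 genes (vertical axes, linear from 0) in the 6 static and 6 flow libraries. Points are libraries, grey lines join same-numbered libraries, the digit marks flow replicate 2, and bars give mean ± SD. Srf lies above its static partner in 6 of 6 pairs, while Actb, Actg1, Vcl, Flna and Tpm1 do so in 5 of 6, the exception being replicate 2.

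None of the 10 genes was called, that is, changed at an adjusted p under 0.05 and by more than 1.5-fold, in limma without the replicate number. Of the 11388 genes tested over the whole table, 0.105% were called higher and 0% lower. Blocking on the replicate number took the calls over all genes from 12 to 68 (0.597%), still with none of the 10, and the adjusted p of Srf became 0.0507. At an unadjusted p under 0.05, Srf and Actg1 were higher and none was lower, where 2.05% of all genes tested were higher and 1.79% lower. Of the 10, 8 had a higher mean of log2(TPM + 1) under flow, and so did 38.8% of all genes. The median difference was 0.20 over the 10 genes and -0.026 over all genes. No other tool was run, since TPM are not counts.

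The cofactors did not follow Srf. Mrtfa had a median of 42.2 TPM under flow (38.3 to 48.9) and 43.9 in static cells (35.1 to 52.0), with a log2 difference of -0.048 ± 0.094 (SE) and a 95% interval of -0.25 to 0.15. Mrtfb, the less abundant of the 2 cofactors, had a median of 13.8 under flow (12.8 to 17.6) and 16.2 in static cells (10.6 to 18.0), a difference of -0.097 ± 0.12 with an interval of -0.35 to 0.16. With flow replicate 6 counted as static the differences were -0.041 and -0.074. Both genes were higher under flow in pair 1 alone, and their groups overlapped over most of their range. The ratio of Mrtfa to Mrtfb TPM was 2.98 ± 0.2001 under flow and 2.87 ± 0.234 in static cells (SD, n = 6), which a 2-sided exact permutation test of the log2 ratio did not separate (p = 0.394). MRTF proteins are regulated mainly by where they are in the cell, which these data do not measure.

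The cytoplasmic actins moved together from library to library. Actb, beta-actin, had flow libraries from 1771 to 4195 TPM (median 3027) and static libraries from 1956 to 2653 (median 2159). Actg1, gamma-actin, had flow libraries from 1239 to 2789 (median 2048) and static libraries from 1282 to 1779 (median 1435). For each actin, 4 flow libraries were above every static library and flow replicate 2 was below every static library. The difference of log2(TPM + 1) was 0.36 ± 0.17 (SE) for Actb, with an interval of -0.0061 to 0.72, and 0.41 ± 0.16 for Actg1, with an interval of 0.065 to 0.75 and an unadjusted limma p of 0.0232 (adjusted 0.998). With the replicate block the adjusted p was 0.190 for Actb and 0.0976 for Actg1. With flow replicate 6 counted as static the differences were 0.12 and 0.17. The 2 genes encode nearly identical proteins and have many processed copies in the genome, so the split of reads between them is uncertain.

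Within a library the ratio of Actb to Actg1 does not depend on the scaling of the library, and it spread far less than either level. It was 1.47 ± 0.0277 under flow (1.43 to 1.504) and 1.52 ± 0.0499 in static cells (1.45 to 1.58; SD, n = 6 each). The ratio was lower under flow in all 6 pairs, by 0.053 on the log2 scale. The 2-sided exact permutation test gave p = 0.0519 over all libraries and p = 0.0312 within pairs, the smallest that 6 pairs can give. Adjusted over the 4 ratio tests made, the first was 0.208.

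Vinculin couples integrin and cadherin adhesions to actin filaments. Vcl had flow libraries from 27.0 to 71.4 TPM (median 39.2) and static libraries from 23.6 to 46.6 (median 32.1), so its groups overlapped, with only flow replicates 5 (70.6) and 6 (71.4) above every static library. Its means were 46.1 ± 19.9 and 34.3 ± 9.56. The log2 difference was 0.35 ± 0.25 (SE, interval -0.18 to 0.89), and the limma p went from 0.177 to 0.00763 with the replicate block (adjusted 0.273). It was 0.21 without flow replicate 5, 0.21 without flow replicate 6 and 0.056 with replicate 6 counted as static. Static libraries 4 to 6 also held more Vcl (35.0, 46.6 and 44.7) than static libraries 1 to 3 (23.6, 29.2 and 26.8), a spread between replicates as wide as the difference between conditions.

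Filamin A crosslinks filaments, and tropomyosin 1 lies along them. Flna was between 126 and 239 TPM under flow (median 220.4) and between 154 and 219 in static cells (median 179), with 0.15 ± 0.15 as the log2 difference (SE). Tpm1 was between 659 and 1153 under flow (median 978) and between 719 and 1007 in static cells (median 809.7), a difference of 0.18 ± 0.13. Without flow replicate 2 these were 0.29 and 0.28, with adjusted limma p of 0.233 and 0.225, and with flow replicate 6 counted as static they were 0.084 and 0.057. Flna was 0.33 with library weights (adjusted p 0.102). In both genes flow replicate 2 lay below every static library and each other flow library lay above its static partner. Of the 10 genes, 6 were higher under flow in 5 or 6 of the 6 pairs, as were 11.5% of all genes tested.

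The smooth muscle genes of the set were barely present. Myl9 ran from 0.413 to 2.94 TPM under flow and from 0.210 to 2.51 in static cells, and Tagln from 1.02 to 6.50 and from 1.56 to 3.97. Their groups overlapped fully or nearly so, with log2 differences of 0.21 ± 0.29 and 0.074 ± 0.29 (SE). In both genes the highest flow and the highest static library were replicate 6. Tagln was higher under flow in 3 of 6 pairs, and its difference turned to -0.16 without flow replicate 6 and to -0.34 with that library counted as static, which also turned Myl9 to -0.12. Of 6 smooth muscle markers, Myh11 did not exceed 0.0916 and Myocd 0.0672 in this experiment, while Smtn, which other cells also express, was between 46.6 and 118. The 6 markers summed to between 49.5 and 122 TPM under flow and between 58.5 and 119 in static cells.

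Read by library, pair 2 stood apart for Actb, Actg1, Vcl, Flna and Tpm1, each higher under flow in every other pair. In pair 2, 9 of the 10 genes were lower in the flow library than in its static partner, by 0.049 to 0.33 on the log2 scale, and only Srf was higher, by 0.091. Mrtfa and Mrtfb were lower in pairs 3 to 6 as well. In the other 5 pairs 7 or 8 of the 10 were higher. Of all genes tested 51.9% were higher in pair 2 and between 32.3% and 64.0% in the other pairs. Without flow replicate 2, Srf had a difference of 0.97 ± 0.14 (SE) and was called, with an adjusted limma p of 0.00405, and 76 genes in all were called higher (0.668%) and 11 lower (0.0967%). The adjusted p was then 0.0622 for Actg1, 0.0995 for Actb and 0.413 for Vcl. Without pair 2 and with the replicate block, an alternative chosen after seeing the data, the adjusted limma p was 0.00217 for Srf, 0.00234 for Actb, 0.00248 for Actg1, 0.0165 for Vcl and 0.0231 for Tpm1. Of these only Srf, at 0.95, exceeded 1.5-fold, beside differences of 0.46, 0.50, 0.45 and 0.26 for the others. Over all genes that fit called 135 higher and 58 lower, and 2862 had an unadjusted limma p under 0.05. The Srf difference was 0.40 ± 0.17 in replicates 1 to 3 and 1.22 ± 0.14 in replicates 4 to 6, where Srf was called (adjusted p 0.0106) beside 0.49% of genes called higher. It was not called in replicates 1 to 3, where 0.0443% of genes were called higher. The difference between the 2 sets was not tested, and the labels name no batch that divides them.

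**Figure D2:**
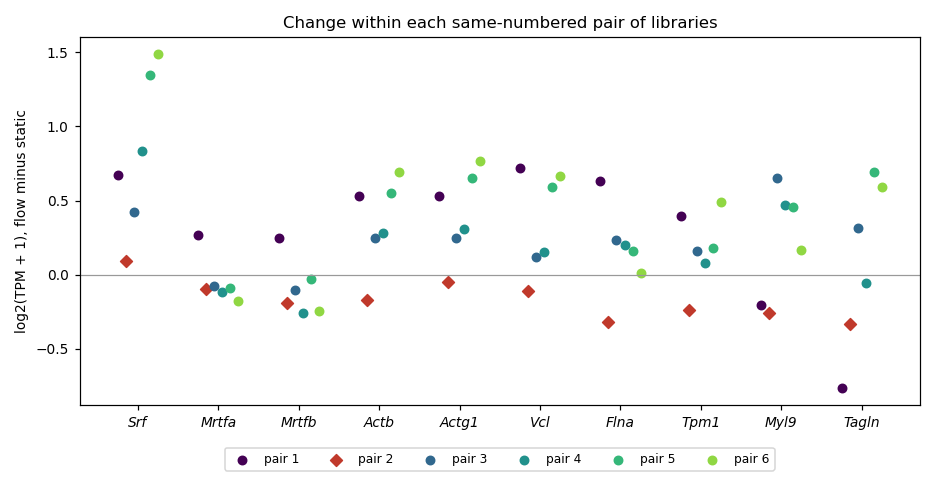
Difference of log2(TPM + 1), flow minus static, within each same-numbered pair (vertical axis) for the 10 genes (horizontal axis). Each point is a pair and the diamonds mark pair 2, which is below 0 for 9 genes and at 0.091 for Srf, while pairs 4 to 6 of Srf lie between 0.84 and 1.49.

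Levels kept nearly the same order in static and flow cells. In static cells Actb, Actg1, Tpm1 and Flna followed each other with no overlap of their ranges. Mrtfa (43.8 ± 6.00), Srf (38.2 ± 2.71) and Vcl (34.3 ± 9.56) came next and overlapped, so their order was within the spread of 6 libraries. Mrtfb was below them all, and Tagln and Myl9 overlapped at the low end. Under flow the means of Srf and Vcl were above that of Mrtfa, with Srf at 71.2 against 42.2 for Mrtfa. The coefficient of variation of Srf was 35.1% among flow libraries and 7.11% among static ones.

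Other genes of the circuit were read from lists of its parts, some of which share genes. Of 32 further MRTF-SRF targets 29 were tested. Of these 2 rose, or 4 with the replicate block, none fell and 24 had a positive difference (median 0.11). Over all genes 0.105% were called higher, or 0.597% with the block, 38.8% were positive and the median was -0.026. Ccn2 (connective tissue growth factor) was 479 ± 188 TPM under flow and 61.1 ± 20.1 in static cells (SD, n = 6), 2.91 higher on the log2 scale (adjusted limma p 0.000309). Ccn1, a matricellular protein, was 1644 ± 726 and 385 ± 25.5, 1.95 higher (adjusted p 0.0107). Both genes stayed called with any library left out, but with flow replicate 6 counted as static no gene of the table was called, and they differed by 2.23 and 1.40. Without the filter on low TPM the adjusted p of Ccn1 was 0.0760, and in replicates 1 to 3 it was 0.360 for Ccn1 and 0.0531 for Ccn2. Thbs1, thrombospondin 1, at 193 ± 84.1 and 63.2 ± 9.36, was not called without the replicate number (adjusted limma p 0.0565) and was called with the replicate block (0.00643), as it was with median-of-ratios scaling (0.0345), with library weights, without flow replicate 2 and in replicates 4 to 6. Ccn1, Ccn2 and Thbs1 are secreted matrix proteins and also known targets of YAP, and the list holds the cytoskeletal targets that were not called.

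The listed TCF-SRF targets had a larger median difference than the MRTF-SRF targets. Activity of TCF or MAP kinases was not measured. Of 9 TCF-SRF targets tested (10 listed), all 9 were higher at an unadjusted p under 0.05, and 2 rose, or 6 with the replicate block. Over all genes tested, 2.05% were higher at that p, and 0.105% were called higher, or 0.597% with the block. The median difference was 2.13 over the 9 targets and -0.026 over all genes. Egr1, an immediate early transcription factor, was 377 ± 240 TPM under flow and 42.5 ± 24.3 in static cells (2.98 on the log2 scale, adjusted limma p 0.0160), and Ier2 was 194 ± 98.9 and 42.3 ± 8.81 (2.01, adjusted p 0.0160). Each of these calls held in 7 of the 12 fits that left out a library. Without flow replicate 4 or without any of static replicates 1 to 4, the adjusted p lay between 0.0547 and 0.0687 for Egr1 and between 0.0547 and 0.0619 for Ier2. Without the filter it was 0.104 for both, and with flow replicate 6 counted as static the differences were 2.28 for Egr1 and 1.47 for Ier2, not called. Junb was 295 ± 234 and 51.9 ± 10.4, a difference of 2.11. It was not called without the replicate number (adjusted limma p 0.0792) and was called with the block (0.00643), as it was with median-of-ratios scaling (0.0459), with library weights, without flow replicate 2, in replicates 1 to 3 and in replicates 4 to 6.

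SRF partners, actin turnover genes and focal adhesion genes held no call with or without the block. Among 5 tested SRF partners and inhibitors 4 were positive, with Fhl2, a LIM protein that binds SRF, at 44.6 ± 17.3 TPM under flow and 30.6 ± 7.70 in static cells (0.47 ± 0.24, SE). Myocd and Phactr1 were under the minimum of 1 TPM. Among 17 tested genes of actin monomer and filament turnover none passed an unadjusted p of 0.05 and the median was 0.025, with cofilin (Cfl1) at 1588 ± 211 and 1445 ± 76.7. Among 15 focal adhesion genes 1 passed it, Tns3, a tensin (0.22 ± 0.091), and 13 were positive, zyxin (Zyx) at 326 ± 75.8 and 262 ± 34.2 among them. Over all genes tested, 2.05% were higher and 1.79% lower at that p, and 38.8% were positive. Called higher were 0.105%, or 0.597% with the block.

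**Figure D3:**
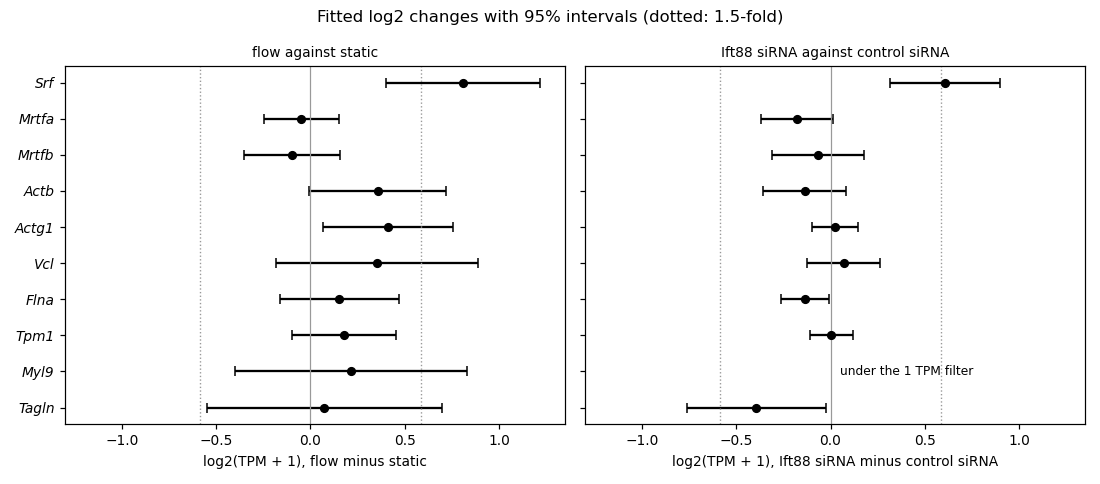
Fitted difference of log2(TPM + 1) (horizontal axis) for each gene (vertical axis), for flow minus static (left) and Ift88 siRNA minus control siRNA (right). Points are limma estimates, bars are 95% intervals and dotted lines mark 1.5-fold. Srf is at 0.81 and 0.61, and Myl9 was under the minimum level in the siRNA experiment.

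The siRNA experiment asked whether the response needed cilia, by lowering Ift88. Ift88 itself was 1.30 ± 0.326 TPM with its siRNA and 4.14 ± 0.0541 with the control siRNA (SD, n = 4 each), and it fell by 1.17 ± 0.13 on the log2 scale (SE, adjusted limma p 0.00212). Srf was again the gene of the set with the largest positive difference. It measured 16.5, 17.1, 24.0 and 16.4 TPM with Ift88 siRNA and 11.9, 9.59, 13.6 and 11.9 with control siRNA. All 4 Ift88 siRNA libraries were above all 4 control libraries, as was so for 5.79% of the 11209 genes tested. The means were 18.5 ± 3.70 and 11.7 ± 1.64, a ratio of 1.58, and the difference was 0.61 ± 0.14 (SE, interval 0.31 to 0.90), with a limma p of 0.000643 and an adjusted p of 0.0739, above the threshold. With library weights Srf was called (adjusted p 0.0277), and the calls over all genes went from 25 to 48. Without replicate 3 of the Ift88 siRNA group, its highest library, the Srf difference was 0.48 (adjusted p 0.118).

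**Figure D4:**
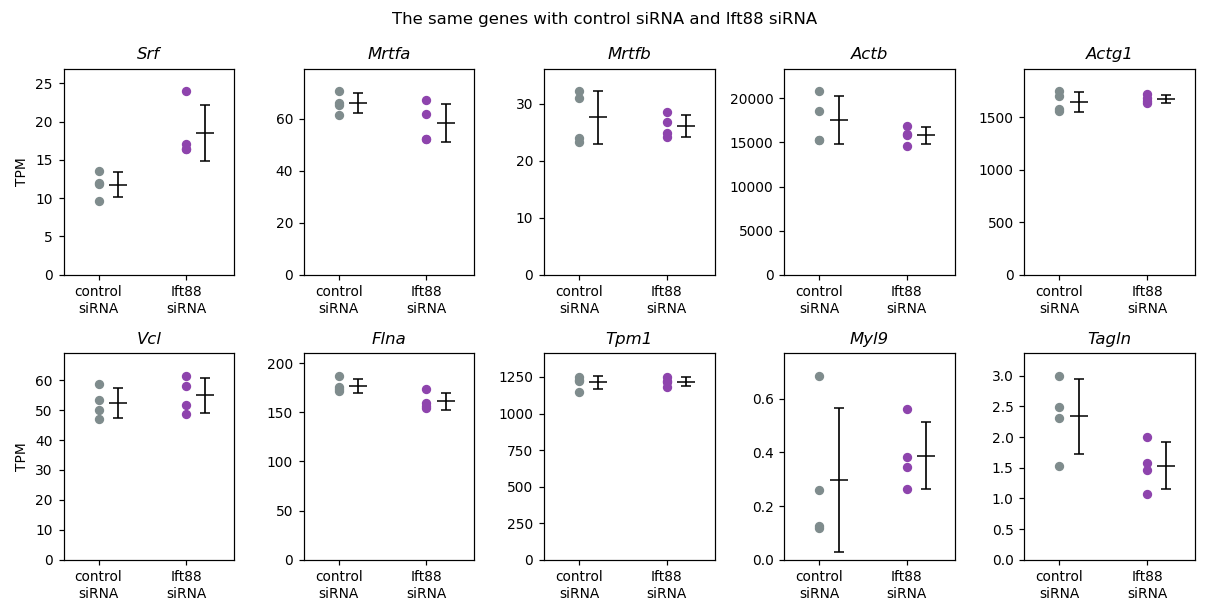
TPM of the same 10 genes (vertical axes, linear from 0) in 4 control siRNA and 4 Ift88 siRNA libraries. Points are libraries and bars give mean ± SD. The Srf groups do not overlap, at 9.59 to 13.6 and 16.4 to 24.0 TPM, and those of the other 9 genes do.

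None of the 9 genes tested in the siRNA experiment was called by limma with all libraries weighted equally and no term for the replicate number, where 0.152% of all genes were called higher and 0.0714% lower. At an unadjusted p under 0.05, 1 of the 9 was higher (Srf) and 2 were lower (Flna and Tagln), where 9.02% of all genes were higher and 4.91% lower. The median difference was -0.068 over the 9 and 0.017 over all genes.

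Mrtfa measured 67.4, 61.8, 52.3 and 52.4 TPM with Ift88 siRNA and 66.3, 70.9, 65.5 and 61.4 with control siRNA. The lowest 2 libraries were Ift88 siRNA libraries and the rest overlapped, with a difference of -0.18 ± 0.088 (SE, adjusted limma p 0.391). Mrtfb measured 28.5, 26.8, 24.9 and 24.3 against 31.1, 24.0, 32.3 and 23.2, and the control libraries enclosed all Ift88 siRNA libraries. Its difference was -0.068, and 0.0090 without control siRNA replicate 3. The ratio of Mrtfa to Mrtfb was 2.23 ± 0.124 and 2.44 ± 0.436 (2-sided exact permutation p = 0.486).

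Actb measured 14555.5, 15894, 16823 and 15902 TPM with Ift88 siRNA and 18571, 15238, 20867 and 15326 with control siRNA, and the control libraries split into a higher and a lower pair that enclosed all but the lowest of the others. Its difference was -0.14 ± 0.10 (SE), with an interval of -0.36 to 0.081. Actg1 was between 1632 and 1718 with Ift88 siRNA and between 1557 and 1752 with control siRNA, with an interval of -0.10 to 0.15 around a difference whose sign turned with the scaling (0.023, or -0.00024 after median-of-ratios scaling). The Actb to Actg1 ratio was 9.45 ± 0.543 and 10.6 ± 1.18 (SD, n = 4), with a 2-sided exact permutation p of 0.143 (adjusted over the 4 ratio tests, 0.286). Tpm1 differed by 0.0049 (-0.018 after that scaling), with an interval of -0.11 to 0.12, and Vcl by 0.069, with an interval of -0.13 to 0.26. Both intervals leave out a change of 1.5-fold in either direction.

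Flna measured 174, 159.7, 156 and 154 TPM with Ift88 siRNA and 174, 187, 176 and 171 with control siRNA, so 3 of the 4 Ift88 siRNA libraries were below every control library. The difference was -0.14 ± 0.059 (SE, unadjusted limma p 0.0386, adjusted 0.329). Tagln measured 1.46, 2.01, 1.07 and 1.59 against 2.31, 1.54, 3.00 and 2.49, a difference of -0.39 ± 0.17 (unadjusted p 0.0377, adjusted 0.327) at a level of a few TPM. Myl9 was 0.388 ± 0.126 and 0.297 ± 0.268 and was not tested. The 6 smooth muscle markers summed to between 121 and 147 TPM with Ift88 siRNA and between 96.6 and 130 with control siRNA, nearly all of it Smtn, and Myh11 did not exceed 0.101. Their part in the Tagln value was not tested.

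None of these lists held a called gene in the siRNA experiment on the log2(TPM + 1) scale with all libraries weighted equally. Counts here are at an unadjusted p under 0.05, where 9.02% of all genes tested were higher and 4.91% lower. Of 29 MRTF-SRF targets tested 4 were higher and none lower, and 19 had a positive difference. Cnn2, a calponin that binds actin, was 311 ± 3.70 TPM and 260.1 ± 12.3 (adjusted limma p 0.0489, a difference of 0.26 and so less than 1.5-fold). Of 9 TCF-SRF targets tested 5 were higher and 1 lower, with Fos at 11.3 ± 0.948 and 7.37 ± 0.775 (adjusted p 0.0480, 0.56 on the log2(TPM + 1) scale and so less than 1.5-fold there). With a pseudocount of 0.1 Fos differed by 0.61 and was called (adjusted limma p 0.0473). Of 18 turnover genes tested 1 was higher, Pfn1 (profilin) at 2211 ± 53.3 and 1925 ± 167 (adjusted p 0.210), and of 15 focal adhesion genes 1 was higher, Vasp at 119 ± 10.2 and 102 ± 7.78 (adjusted p 0.235). Among 5 SRF partners 1 was higher, Fhl2, and 1 lower, Elk3, a TCF, at 32.4 ± 5.03 and 40.4 ± 2.80 (adjusted p 0.197).

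For Srf, its cofactors and Actb, levels differed more between the 2 experiments than between the conditions within either. TPM are scaled within each library. The 2 experiments differ in culture schedule, only the second involved transfection, and no test was made between them. The following values are therefore a description. The groups set side by side are the flow libraries and the control siRNA libraries. Mean Actb was 2963 and 17500.4 TPM, a ratio of 5.91. Among 10863 genes with at least 1 TPM in both groups, 101 had a larger ratio, and the median log2 ratio was -0.012. Actg1 had a ratio of 0.817, so the Actb to Actg1 ratio within a library went from between 1.43 and 1.58 in the flow and static libraries to between 8.80 and 12.3 in the siRNA libraries. Srf went the other way, from 71.2 to 11.7 TPM, a ratio of 0.165, which 10710 of these genes exceeded. Every siRNA library, the highest at 24.0, was below the lowest static library at 34.7. Mrtfa and Mrtfb had ratios of 1.57 and 1.95, and Vcl, Tpm1, Tagln and Flna of 0.860 to 1.25. Actb alone made up 0.177% to 0.420% of all TPM in the first experiment and 1.46% to 2.09% in the second. Whether this reflects the cells or the assignment of reads was not tested.

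**Figure D5:**
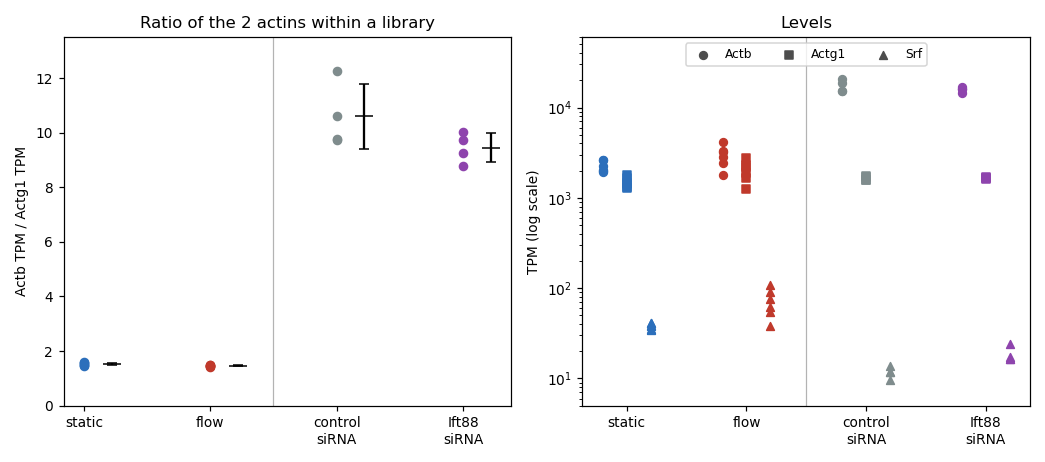
Left, ratio of Actb to Actg1 TPM (linear axis from 0) in each library of the 4 groups, with mean ± SD as bars. Right, TPM of Actb, Actg1 and Srf on a log axis. The ratio is at most 1.58 in static and flow libraries and at least 8.80 in siRNA libraries, while Srf is lower in every siRNA library. The vertical line parts the 2 experiments.

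The genes whose profile over the libraries was most like that of Srf or Vcl were found by the root mean square difference of log2(TPM + 1), each gene centred on its own mean. In the flow experiment, over 12 libraries, Srf itself had a root mean square of 0.53 around its mean. The nearest genes were Klf6, a zinc finger transcription factor (128 TPM under flow and 66.7 in static cells, at a difference of 0.12), Zfp36l2, an RNA-binding protein (155 and 93.4, 0.14) and Tgif1, a homeobox repressor (88.2 and 46.7, 0.15). For Vcl, with a root mean square of 0.49, they were Vasn (57.6 and 39.5, 0.12), Palld, the actin-associated palladin (25.6 and 21.8, 0.13), and Lbh (47.0 and 32.9, 0.14). In the siRNA experiment, over 8 libraries, the nearest to Srf were Reg2 (0.12), Rasgrp3 (0.12) and Selenon (0.15), and the nearest to Vcl were Mthfd1 (0.027), Tspan9 (0.033) and Cstf1 (0.037). In the second experiment the root mean square of Vcl itself was 0.13.

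In the GRCm38 assembly (GENCODE M21) the 10 genes lie on 9 chromosomes and are not neighbours, apart from Tpm1 and Tagln which share chromosome 9. Srf lies at chr17:46548329-46556175, Mrtfa at chr15:81012281-81190757, Mrtfb at chr16:13256481-13417529, Vcl at chr14:20929398-21033676 and Actb at chr5:142903115-142906754. Actg1 lies at chr11:120345690-120348542, Tpm1 at chr9:67022590-67049406, Myl9 at chr2:156775420-156781658, Tagln at chr9:45929619-45936058 and Flna at chrX:74223461-74249820. Positions are those of whole genes, whose transcript abundances were brought to gene level in the deposited values.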

How the data were processed

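RNA of DC2 cells was measured in 12 libraries of flow and static cells and 8 libraries of Ift88 and control siRNA cells. The values the authors deposited are TPM, 1 table per experiment. Per the paper's methods, poly(A) RNA went into directional libraries, and the authors ran Trimmomatic, kallisto against the mouse transcripts of Ensembl, and tximport to reach gene level. The submitters' processing notes name fastp 0.20.0, FastQC 0.11.8, MultiQC 1.8 and kallisto 0.46.2. The authors tested with DESeq2, whose scaling is not in the TPM. The Ensembl release named there is newer than the annotation used here for positions, which only locate the genes. All sample columns were used.

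Genes averaging 1 TPM or more over a table were put on the log2(TPM + 1) scale and fitted in limma 3.58.1 under R 4.3.3, using lmFit and then eBayes with an intensity trend. The Benjamini-Hochberg adjustment ran over every gene fitted. Calls needed an adjusted p under 0.05 and over 1.5-fold, the thresholds of the paper. Differences on this scale understate the change of low genes. Ratios within libraries were compared with 2-sided exact permutation tests in scipy 1.17.1. The remaining work was done in Python 3.11.15 (pandas 2.3.3, numpy 2.4.6) and drawn in matplotlib 3.10.9. In simulated tables holding 200 genes with a true log2 change of 1, the fit found 92.5% of them in the flow design (11388 genes, 2.12% of calls false) and 96% in the siRNA design (11209 genes, 0.518% false). The simulated libraries were drawn independently, with no replicate structure such as the flow experiment has. These shares therefore check the code and do not give the power or error rate in the real libraries.

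The 10 genes, the lists and the tests were chosen with earlier results of these data known. Genes beyond the 10 are named where called, at most 4 per list and comparison, or else as the genes with the smallest p, up to 3, and as the 3 nearest profiles of Srf and Vcl; Ift88 checks the siRNA. A few of these are given only in the counts. Some results, among them 1 list, are not reported here. Groups follow the sample titles. Neither the labels nor the methods say that replicates were separate cultures, so p-values measure the spread between these samples, which may be technical. Flow and static libraries share numbers. After group means were removed, libraries with a shared number correlated across genes at 0.294, 0.463, 0.425, 0.468, 0.662 and 0.600 (replicates 1 to 6). All exceed 0.1, and the numbers were therefore treated as pairs. The same correlation was not computed for libraries with different numbers. Replicates 1 to 3 and 4 to 6 also stood apart, so these values cannot tell pairing by number from that split. The text of the paper names no pairing, and values without the replicate block come first. Alternatives covered the pseudocount (0.1), the filter, the replicate block, library weights, scaling by median of ratios, each library left out, the fold threshold, the label of flow replicate 6 and replicates 1 to 3 or 4 to 6 alone. Positions are from GENCODE M21 on GRCm38 and promoter sequences from RefSeq on GRCm38.p6. No position was carried between builds.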

Additional observations from a re-analysis of the deposited data

Results flagged for a closer look

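In 3 of the 40 sets formed by a gene and a group, 1 library lay far from the rest of its group by Dixon's test at the 95% level, where chance gives about 1 set in 20. Mrtfb was 17.6 TPM in flow replicate 5, with the nearest other flow library at 13.9 and the farthest at 12.8. Tagln was 3.97 TPM in static replicate 6, with the nearest static library at 2.43. Srf was 24.0 TPM in Ift88 siRNA replicate 3, with the nearest library of its group at 17.1 and the lowest at 16.4.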

How the results depend on the processing

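Over all genes, the 12 calls of flow against static became 2 without the filter, 28 with median-of-ratios scaling, 86 with library weights (75 higher, 11 lower), 68 with the replicate block, 5 in replicates 1 to 3, 56 in replicates 4 to 6, 0 with flow replicate 6 counted as static (181 genes at an unadjusted limma p under 0.05), and 5 to 87 with a library left out. Without pair 2 and with the replicate block, chosen after seeing the data, they were 193 (135 higher, 58 lower). Among the 10 genes the count of 0 became 1, each time Srf, with library weights, in replicates 4 to 6, without flow replicate 2 (0 to 1 with a library left out) and without pair 2 under the block. Over these settings the Srf difference stayed positive, at 0.68 to 0.97 with a library left out (adjusted p 0.00405 to 0.405). The 25 calls of the siRNA experiment became 6 without the filter, 48 with library weights, 71 without the fold threshold and 11 to 23 with a library left out. The siRNA libraries share only a number: the correlations were 0.0464, 0.00276, 0.259 and 0.176, and with the replicate block there were 44 calls and 1 among the 9 genes, Srf (adjusted p 0.0238), which library weights also called (1 gene, adjusted p 0.0277). With a library left out Srf was at 0.48 to 0.67 and the members' count stayed between 0 and 0. Signs turned for genes near 0. Under flow, Mrtfa was 0.032 in replicates 1 to 3 and -0.11 to 0.0025 with a library left out, Myl9 was -0.12 and Tagln -0.34 with flow replicate 6 as static, and Tagln was -0.26 in replicates 1 to 3 and -0.16 to 0.22 with a library left out. With Ift88 siRNA, Mrtfb was -0.14 to 0.0090, Actg1 -0.0033 to 0.053 and Tpm1 -0.023 to 0.020 with a library left out, Actg1 was -0.00024 and Tpm1 -0.018 with median-of-ratios scaling, and Tpm1 was -0.0055 with library weights. The Actb to Actg1 difference under flow was -0.053 with p = 0.0312 by exact permutation within pairs (replicate block), and -0.067 to -0.042 with a library left out (exact permutation p 0.0216 to 0.104), under 0.05 without flow replicate 6 and without static replicate 3. The cause of these changes was not tested. The block changed no other call among the 10 genes. A CArG box with 1 mismatch was in the window of 11.3% of all genes. Myl9 was under the filter in replicates 1 to 3 and in the siRNA experiment, and has no value there. TPM hold no read totals, so what depth limits cannot be stated.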
